A study of Mus musculus with 24 samples.

Results

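The genotype comparison in sorted CD45-positive cells covered 12 of the 24 libraries of the series, those whose titles name the hematopoietic population, 6 from wild type and 6 from Sh3bp2 knock-in (labelled Sh3bp2KI/KI) mice. Every gene of these libraries was a candidate, and no measured value entered the choice of libraries. Gene lists were chosen with earlier results of these data known, and named genes mostly by their values, as given below. All mice were female, of the strain C57BL/6 and 6 to 8 weeks old. Marrow was grown for 7 days as bone marrow stromal culture, and cells carrying both CD45, the pan-leukocyte phosphatase, and Sca1, a surface antigen of progenitors and activated cells, were sorted. The 12 mesenchymal libraries of the series, CD45-negative and Sca1-positive, served here only as a reference for stromal RNA. Nothing in the labels ties replicates to separate mice or dishes, so p-values measure the spread between these samples, which may be technical. Nor do the labels name the residue that the knock-in changes.

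SH3BP2 is an adaptor protein of myeloid and lymphoid cells. It binds SYK, SRC family kinases, VAV exchange factors and phospholipase C gamma downstream of immunoreceptors, and its amount is held down by tankyrase, which marks it for degradation. Mutations that stop this degradation cause cherubism, in which bone of the jaw is replaced by tissue rich in macrophages and multinucleated osteoclast-like cells, and knock-in mice develop macrophage-driven inflammation and bone loss. Bulk RNA cannot tell apart a change in the number of cells of a type and a change in RNA per cell, which holds for every difference given here.

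Library totals ran from 9875390 to 15084610 counts, with a mean of 12859955 ± 2133712 (SD, n = 6) for wild type libraries and 12993057 ± 1283421 (SD, n = 6) for knock-in libraries. The number of counts sets the precision for genes with low counts. Levels are given in CPM (each count divided by the TMM-adjusted size of its library), as mean ± SD (n = 6 per genotype) or as the lowest, highest and median library. Each fold change sets knock-in above wild type in the ratio. A gene is said to have risen or fallen only where edgeR's quasi-likelihood test gave a Benjamini-Hochberg adjusted p under 0.05. The test had the run as a block, a label read from the prefix of the file names that may mark another batch. The first principal component of the 12 libraries, with 37.5% of the variance, put all wild type libraries on one side and all knock-in libraries on the other.

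Sh3bp2 itself (ENSMUSG00000054520, chromosome 5, 34525838 to 34563641 in GRCm38) measured 162 to 235 CPM (median 218) in wild type and 186 to 286 CPM (median 229) in knock-in libraries. The ranges overlapped, and the difference was not called (log2 fold change 0.15 ± 0.12 SE, adjusted p = 0.448). A change of residue need not alter the transcript level, so this does not check the genotype labels. Ptprc, which encodes CD45, measured 682 to 872 CPM (median 794) against 666 to 886 CPM (median 725). Ly6a, which encodes Sca1, was at 2.63 to 32.2 CPM (median 10.6) in wild type and 4.62 to 14.9 CPM (median 11) in knock-in. The mesenchymal libraries, also sorted for Sca1, had mean Ly6a levels of 10.04 (wild type) and 10.9 (knock-in) CPM, and mean Ptprc levels of 2.99 and 3.08 CPM. Neither sorting marker was called (adjusted p = 0.692 and 0.914), and the direction of Ly6a turned in some alternative fits, as did that of Ptprc in run 2 alone.

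Of 14030 tested genes, 1264 rose and 967 fell in knock-in cells, 15.9% of all genes in total, 9.01% upward and 6.89% downward. Of the risers 450 and of the fallers 213 differed at least 2-fold, and 148 and 36 at least 4-fold. The median size of a called change was 0.71 on the log2 scale for risers and 0.54 for fallers. All 6 knock-in libraries lay above all 6 wild type libraries for 670 genes (4.78%) and below them for 426 (3.04%). Among the called genes this held for 655 risers and 414 fallers. Without replicate 3 of each genotype, the library with the most stromal RNA in its group, 958 genes rose and 654 fell.

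**Figure D1:**
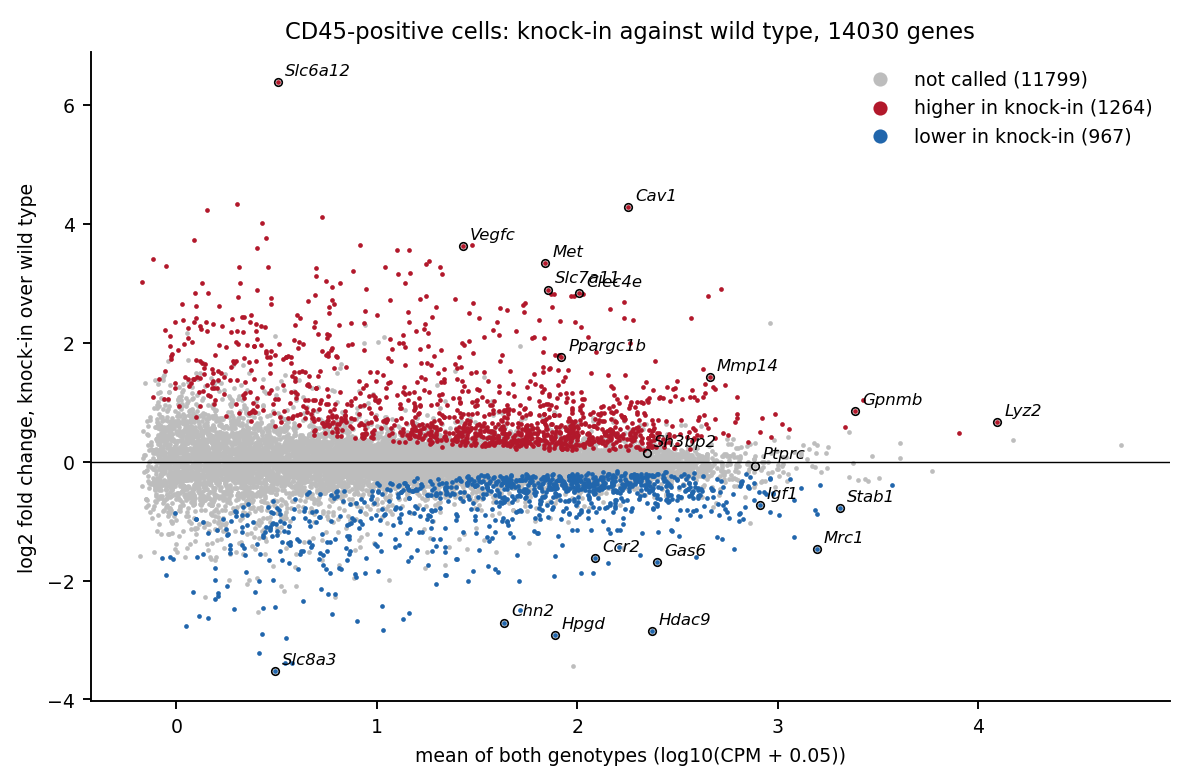
Log2 fold change of knock-in over wild type (vertical axis) against the mean level of both genotypes (horizontal axis, log10 of CPM + 0.05), one point per tested gene, with the 1264 risers in red and the 967 fallers in blue. Rises reach larger fold changes than falls, with 148 risers and 36 fallers beyond 4-fold, and Sh3bp2 and Ptprc lie near 0.

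The CD45-positive libraries held RNA of stromal marker genes, taken here as a share of stromal RNA, so results were read beside that share. From 23 stromal marker genes it was estimated at 5.83% to 18.9% (median 8.41%) in wild type and at 4.98% to 21.1% (median 9.86%) in knock-in libraries. The ranges overlapped widely, and replicate 3 was the highest in both genotypes. The mean difference was 1.2 percentage points (two-sided exact permutation p = 0.61, libraries taken as unpaired), and without knock-in replicate 3 it was -0.886. Of the 24 tested stromal markers 0 were called by edgeR, 0 by DESeq2 and 0 had an unadjusted edgeR p under 0.05, and the median log2 fold change was 0.29 against -0.00479 over all tested genes. Their summed level was 2921 to 14291 CPM in wild type and 2625 to 15659.8 CPM in knock-in libraries.

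Of the 2231 called genes, 567 (25.4%) had a higher level in the mesenchymal than in the CD45-positive libraries, against 6025 (42.9%) of all tested genes. The stromal part of a gene's level, taken as the share times its mesenchymal level in the same genotype, had a median of 5.12% over the called genes in the genotype where each was higher. It reached 20% for 227 of them (10.2%). Over all tested genes the median was 8.54%, and 2017 (14.4%) reached 20%. When the stromal part was subtracted from every library and the test repeated, 1891 of the 2231 kept their call and direction, 273 lost the call and 67 had too few counts left. With the log2 share as a covariate in the fit, 2193 kept it.

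**Figure D2:**
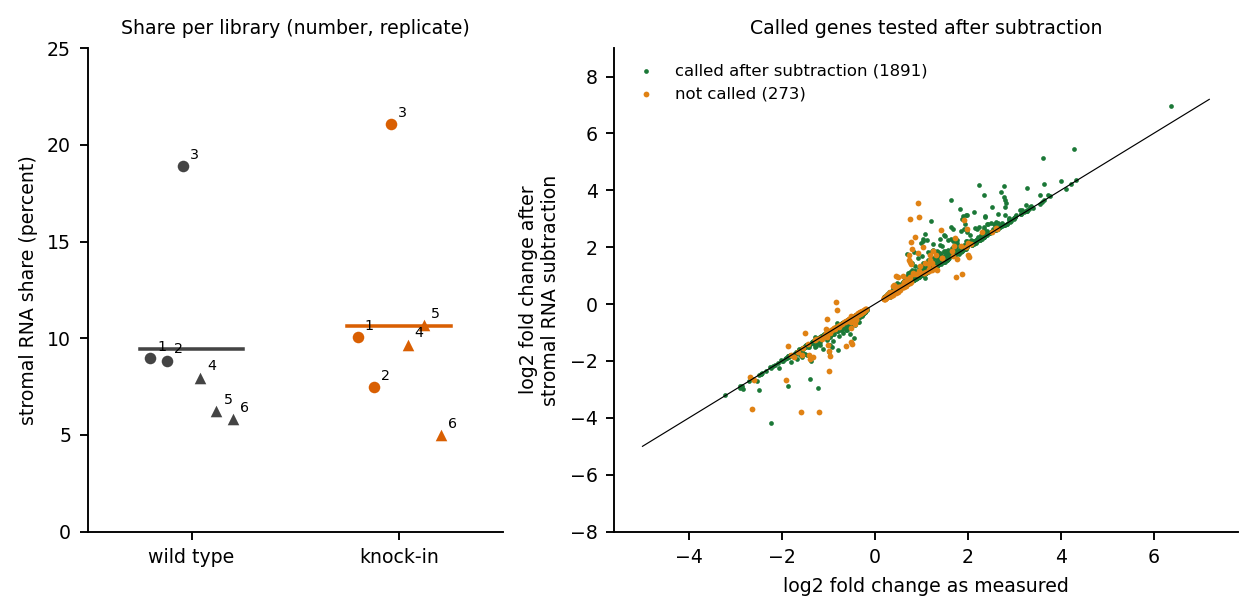
Left, estimated stromal RNA share in percent (vertical axis) of the 12 libraries, numbered by replicate, with circles for run 1, triangles for run 2 and a line at the mean of 6. Right, for the 2164 called genes that could be tested after subtraction, the log2 fold change after (vertical axis) against before subtraction (horizontal axis), with the line of equality; 1891 were still called.

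The largest rises included genes of transport, of the membrane and of growth factor signalling. Slc6a12, a betaine and GABA transporter (ENSMUSG00000030109, chromosome 6, 121343076 to 121365775), was nearly without counts in wild type, with 5 counts in 6 libraries against 481 in knock-in, where single libraries held 18 to 163. It had the highest fitted log2 fold change of the genes named here, 6.38 ± 0.69 SE (adjusted p = 9.45e-05), a value that rests on those few wild type counts. Cav1 (ENSMUSG00000007655, chromosome 6, 17306335 to 17341452), the coat protein of caveolae, was at 8.4 to 27.5 CPM (median 17) in wild type and 155 to 604 CPM (median 322) in knock-in libraries. The groups did not overlap (log2 fold change 4.28 ± 0.28 SE, adjusted p = 7.55e-06), and stromal RNA accounted for an estimated 3.25% of the knock-in level. Met (ENSMUSG00000009376, chromosome 6, 17463800 to 17573980), the receptor of hepatocyte growth factor, measured 6.38 to 19.4 CPM (median 11.4) against 77.2 to 196 CPM (median 113), again without overlap (log2 fold change 3.33 ± 0.34 SE, adjusted p = 9.20e-05). Vegfc, a growth factor for lymphatic vessels, measured 1.97 to 7.21 CPM (median 3.73) against 15.5 to 115 CPM (median 45.9) (log2 fold change 3.62 ± 0.44 SE, adjusted p = 2.79e-04). Its lowest knock-in library lay above its highest wild type library, while the knock-in libraries themselves differed several-fold.

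Other genes with large rises were the activating myeloid receptor Tarm1 (0.372 ± 0.265 to 5.14 ± 2.52 CPM, log2 fold change 3.76), the adaptor Stac2 (1.21 ± 0.428 to 15.1 ± 4.52 CPM, 3.64) and the prostatic acid phosphatase gene Acpp (4.36 ± 2.28 to 55.1 ± 28.6 CPM, 3.63). The acute phase gene Saa3 rose from 2.33 ± 1.74 to 26.5 ± 25.4 CPM and the collagen-binding integrin subunit Itga2 from 1.93 ± 1.2 to 23.1 ± 10.2 CPM. Bdh1, which interconverts ketone bodies in mitochondria, rose from 3.21 ± 2.88 to 33.2 ± 11.9 CPM, the cytochrome P450 gene Cyp2s1 from 3.15 ± 3.49 to 31.7 ± 12.4 CPM and Nyap2, a phosphoinositide 3-kinase adaptor, from 3.77 ± 3.08 to 37.3 ± 15.7 CPM. None of these 8 genes had overlapping groups, and their edgeR adjusted p-values ran from 9.59e-06 to 0.00729. The most stromal of them was Stac2, at an estimated 3.18% of its knock-in level.

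The largest falls were in genes of several kinds. Hdac9 (ENSMUSG00000004698, chromosome 12, 34047580 to 34917095), a class IIa histone deacetylase, measured 355 to 472 CPM (median 404) in wild type and 36.6 to 90.9 CPM (median 45.6) in knock-in libraries. These ranges lay far apart (log2 fold change -2.86 ± 0.24 SE, adjusted p = 3.01e-05). Chn2, a RAC GTPase-activating protein, fell from 74.9 ± 17.7 to 11.6 ± 4.37 CPM, the catenin gene Ctnnd2 from 18.7 ± 3.77 to 2.61 ± 0.513 CPM and Hpgd, which breaks down prostaglandins, from 136 ± 90.1 to 18.3 ± 7.02 CPM. The log2 fold changes of these 3 were -2.71, -2.84 and -2.91, with edgeR adjusted p-values of 3.48e-05, 2.89e-06 and 0.00268. Fgf13, an intracellular relative of the fibroblast growth factors, fell from 24.5 ± 17.8 to 4.25 ± 2.41 CPM.

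Some of the largest falls were in genes with much stromal RNA. Slc8a3, a sodium-calcium exchanger, was at -3.52 and the proprotein convertase Pcsk6 at -3.39 on the log2 scale, with an estimated 18.4% and 18.7% of their wild type levels of stromal origin. Insc, a cell polarity adaptor, had 50.7% and the secreted WNT inhibitor Sfrp2 222%, so the stromal estimate for Sfrp2 exceeded its measured level. After subtraction these 4 genes had too few counts for a test. The potassium channel gene Kcnma1 (-2.65, 20.7% stromal) was tested and lost its call (adjusted p = 0.125).

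Measured in CPM rather than in fold, the gains were led by genes that were already well covered. Lysozyme 2, Lyz2, an antibacterial enzyme of macrophages, went from 9668 ± 2412 to 15191 ± 3069 CPM (log2 fold change 0.66 ± 0.13 SE, adjusted p = 0.00482). The filament gene Vim rose from 1744 ± 495 to 3593 ± 696 CPM, the glycoprotein Gpnmb from 1745 ± 429 to 3135 ± 508 CPM, the giant scaffold Ahnak from 1734 ± 225 to 2583 ± 304 CPM and the cytolinker Plec from 707 ± 104 to 1229 ± 151 CPM. Pla2g7, which hydrolyses platelet-activating factor, rose from 316 ± 50.8 to 776 ± 204 CPM, the matrix protein gene Tgfbi from 399 ± 106 to 857 ± 252 CPM and the semaphorin co-receptor Nrp2 from 827 ± 91.5 to 1283 ± 209 CPM. Their log2 fold changes ran from 0.58 to 1.29, and the groups overlapped for Lyz2 and Tgfbi. Stromal RNA gave at most an estimated 11.7% of these knock-in levels, in Vim.

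The largest losses in CPM included scavenging and endocytic receptors. Mrc1 (ENSMUSG00000026712, chromosome 2, 14229392 to 14332057), the mannose receptor, measured 1989.8 to 2909.6 CPM (median 2239) in wild type and 635 to 1044 CPM (median 837) in knock-in libraries. Stab1, a scavenger receptor of resident macrophages, measured 2129 to 2903 CPM (median 2654) and 753 to 1930.1 CPM (median 1518). Both genes separated the groups completely, with log2 fold changes of -1.47 (adjusted p = 6.78e-05) and -0.78 (adjusted p = 0.015). The clathrin adaptor Dab2 fell from 1964 ± 259.9 to 1117 ± 167 CPM, the endosomal exchanger Slc9a9 from 1702 ± 565 to 704 ± 169 CPM, the ubiquitin ligase Wwp1 from 1324 ± 158 to 708 ± 143 CPM and the splicing regulator Mbnl1 from 2030.2 ± 498 to 1106 ± 219.8 CPM. The protease Ctsb fell by a smaller factor, from 4242 ± 586 to 3226 ± 429.7 CPM (-0.39). Fcrls, a receptor-like gene of resident macrophages, was at -1.48 (adjusted p = 0.0223), and lost its call without wild type replicate 4 or knock-in replicate 2, with adjusted p-values up to 0.0569.

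Among the genes with the smallest adjusted p-values were the glycosyltransferase Gbgt1 (9.03 ± 1.66 to 32.7 ± 3.91 CPM), the signal-regulatory receptor Sirpb1c (45.9 ± 6.56 to 134 ± 19.1 CPM), the protease inhibitor Serpinb8 (34.9 ± 3.43 to 120.3 ± 19.8 CPM) and the semaphorin Sema4a (16.3 ± 1.97 to 46 ± 5.97 CPM). All 4 rose, with the log2 fold change of Gbgt1 at 1.87 and that of Serpinb8 at 1.78, and with edgeR adjusted p-values from 2.89e-06 to 7.55e-06, and stromal RNA gave at most an estimated 0.233% of a knock-in level, in Gbgt1. Sirpb1c belongs to a family of near-identical receptors, whose reads the counting could have split. Col18a1, a basement membrane collagen that is more often thought of as stromal, rose from 24.1 ± 6.19 to 167 ± 52.4 CPM (2.79, adjusted p = 7.55e-06). Its stromal part was 7.79% of the knock-in level, and its log2 fold change after subtraction was 3.76.

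**Figure D3:**
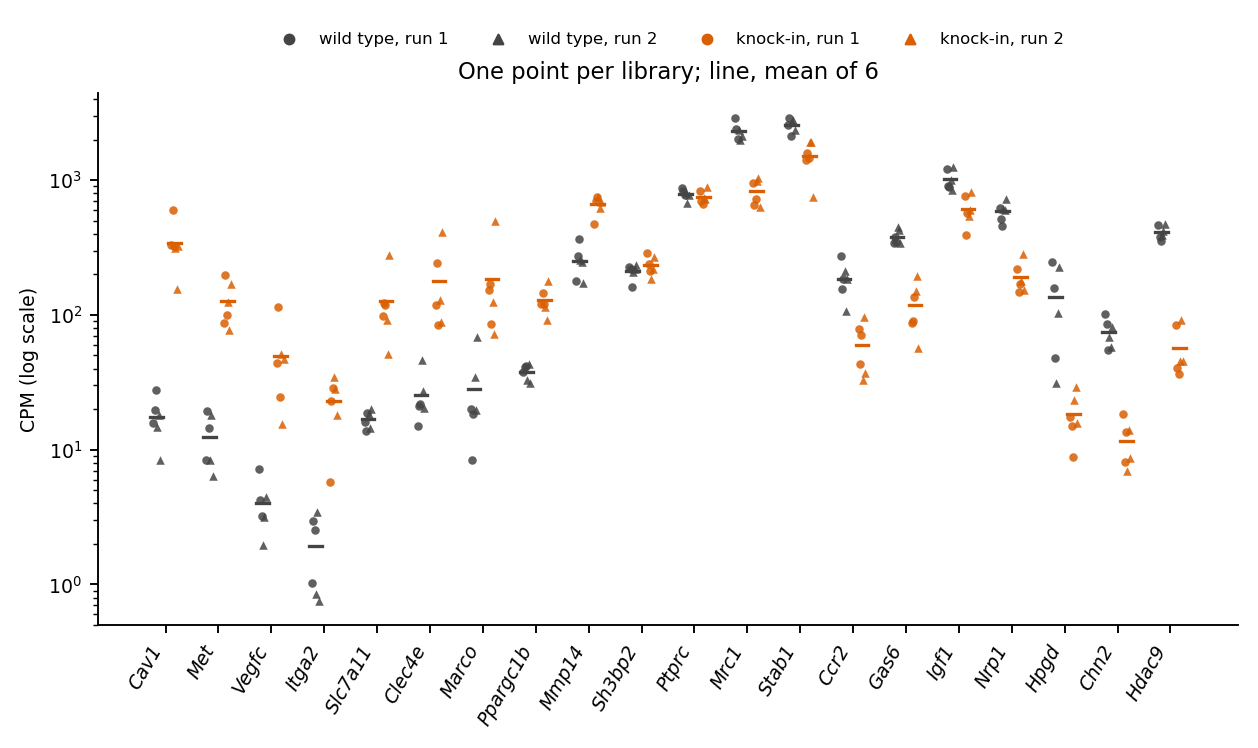
CPM on a log axis of 20 genes in each of the 12 libraries, grey for wild type and orange for knock-in, circles for run 1 and triangles for run 2, with a line at the mean of 6. Cav1, Met and Vegfc lie higher in every knock-in library, Mrc1, Stab1 and Hdac9 lower, while Sh3bp2 and Ptprc overlap.

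Marker lists of cell types were then read one by one. The calls in these and all later lists stand beside 9.01% risers and 6.89% fallers among all tested genes. Of 23 tested osteoclast genes 18 rose, and their summed level was 1799 to 3857 CPM in wild type and 4524 to 8751 CPM in knock-in libraries, so the groups did not overlap. The part of these cells in the other changes was not tested. Of 23 tested macrophage genes 2 rose and 8 fell (median log2 fold change -0.39), and their summed level was 10339 to 12244 CPM in wild type and 9615 to 11105 CPM in knock-in libraries. The falls numbered 4 in run 1 alone, 1 in run 2 alone, 4 with all 24 libraries and 13 with a replicate block. The falls included Mrc1, the transcription factor Maf (718 ± 85.6 to 401 ± 67.7 CPM, -0.85) and the high-affinity IgG receptor Fcgr1 (113 ± 24.5 to 47.5 ± 20.5 CPM, -1.26).

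Other leukocyte lists held 0 to 4 calls each. Of 13 tested monocyte genes 2 rose and 2 fell, including the chemokine receptor Ccr2, at 106 to 273 CPM (median 184) in wild type and 32.8 to 97.3 CPM (median 57.5) in knock-in (log2 fold change -1.62 ± 0.29 SE, adjusted p = 0.00305). Those groups did not overlap. Neutrophil genes had 0 calls by edgeR and 0 by DESeq2 among 11 tested, none at an unadjusted edgeR p under 0.05, with sums of 107 to 207 CPM in wild type and 106 to 165 CPM in knock-in libraries. Of 8 dendritic cell genes 2 fell, among them the transcription factor Batf3 (-1.79). Of 9 tested B lineage genes 2 fell, the antibody chain gene Ighm and the receptor chain Cd79a, with sums of 303 to 666 CPM in wild type and 207 to 325 CPM in knock-in libraries. T and NK cell, erythroid and mast cell lists had only 2, 1 and 1 tested members, of which Cd4 and the transferrin receptor Tfrc rose, and the adult globin genes Hba-a1, Hba-a2, Hbb-bs and Hbb-bt were listed at 0. The osteoblast list had 4 falls of 9 tested, including the osteoblast factor Sp7 (-1.39, 67.6% stromal). All 9 were higher in the mesenchymal libraries, the falls numbered 2 without wild type replicate 1 or 3 and 1 without wild type replicate 2 or 4 or knock-in replicate 1, 2, 3, 4 or 6, and 0 of them kept a call after subtraction.

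Receptors of the leukocyte surface changed in both directions, to be read beside backgrounds of 9.01% risers and 6.89% fallers. In the family of paired LILR, PIR and CD300 receptors and their relatives, 7 of 21 tested genes fell and 2 rose (median log2 fold change -0.46). The falls numbered 3 in run 1 alone, 2 in run 2 alone, 4 with all 24 libraries and 11 by DESeq2. The collagen receptor Lair1, an inhibitory receptor, fell from 223 ± 27.8 to 116 ± 25.5 CPM, Fcrl1 from 17.5 ± 4.44 to 7.07 ± 1.16 CPM and Cd300ld3 from 5.22 ± 1.69 to 2.02 ± 0.756 CPM, while Lilra6 rose from 12.3 ± 1.56 to 17.5 ± 2.58 CPM. Members of this family are similar in sequence, and their counts carry that doubt. Among 24 C-type lectins 6 rose and 5 fell. Clec4e, the lectin Mincle that signals through SYK, measured 15 to 46.1 CPM (median 21.3) in wild type and 84.4 to 410.04 CPM (median 124) in knock-in, without overlap (log2 fold change 2.84 ± 0.41 SE, adjusted p = 7.58e-04).

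Scavenger receptors also changed in both directions, with 4 of 23 up and 5 down (3 without wild type replicate 4 or 6 or knock-in replicate 2, 3, 4 or 5). Marco, which takes up particles and bacteria, measured 8.39 to 68.4 CPM (median 20.003) against 71.8 to 501 CPM (median 139.7) (log2 fold change 2.81 ± 0.50 SE, adjusted p = 0.00277), and the oxidised lipoprotein receptor Olr1 rose from 0.979 ± 0.497 to 3.81 ± 0.837 CPM. Mrc1 and Stab1 were on the falling side. The Siglec and MS4A families had 0 calls by edgeR among 8 and 10 tested genes, where 3 and 1 had an unadjusted p under 0.05 and DESeq2 called 1 and 0.

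In the main fit, genes of the signalling machinery around SH3BP2 were called lower more often than higher. Of 34 tested kinases and adaptors of the SRC, SYK and BTK families, 8 fell and 3 rose, beside backgrounds of 6.89% and 9.01%. In run 1 alone 1 fell and in run 2 alone 0. With all 24 libraries 5 fell, as without the highest stromal share of each genotype, and other fits gave up to 12. The SRC family kinase Fgr rose from 22.8 ± 6.45 to 96.6 ± 39.7 CPM (log2 fold change 2.08 ± 0.28 SE, adjusted p = 4.77e-04), without overlap. Syk, the kinase that SH3BP2 binds, rose from 334 ± 36.2 to 430.04 ± 60.7 CPM (0.37), with overlapping groups. The exchange factor Vav3 fell from 483 ± 102 to 270.4 ± 68.7 CPM, the docking protein Gab3 from 130.1 ± 36.5 to 58.6 ± 12.8 CPM and the phosphoinositide kinase subunit Pik3cd from 199 ± 14.6 to 155 ± 14 CPM. These 3 falls ranged from -1.15 to -0.36 on the log2 scale.

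Genes of the NF-kB pathway, which signals inflammatory receptors to the nucleus and is switched off by its own induced inhibitors, rose in part. Of 29 tested subunits, feedback inhibitors and adaptors 13 rose, 0 fell and the others were not called (median log2 fold change 0.34). In run 2 alone 3 rose. The inhibitor Nfkbia measured 26.4 to 35.6 CPM (median 31) against 50.1 to 87.5 CPM (median 63.4), Tnip1, a ubiquitin-binding inhibitor, rose from 102 ± 11.5 to 211.5 ± 34.8 CPM and the nuclear cofactor Bcl3 from 25.5 ± 5.69 to 51.2 ± 9.93 CPM. None of the 3 overlapped between genotypes (adjusted p = 6.63e-05 to 1.24e-04 by edgeR). Among AP-1, CREB and MAF factors 6 of 23 rose and 3 fell, with the immediate early gene Fos going from 99.5 ± 11.6 to 187 ± 37.9 CPM. Of 27 feedback regulators of ERK and STAT signalling 7 rose (4 without wild type replicate 1 or knock-in replicate 3 and 3 without wild type replicate 4) and 3 fell, the phosphatase Dusp4 rising from 10.4 ± 5.43 to 54.3 ± 11.9 CPM.

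Promoter sequence was compared between all risers, all fallers and all tested genes for 5 motifs. RefSeq promoters (build GRCm38.p6, 250 bases before to 50 after a start) matched 10111 of 14027 tested symbols, and each was searched on both strands. The NF-kB motif (3 G, any 2 bases, 3 T, 2 C) was in the promoter of 35 of 960 risers (3.65%), 18 of 742 fallers (2.43%) and 2.02% of all tested genes. The AP-1 motif TGANTCA was in 10.00% of risers, 8.22% of fallers and 6.39% of all. The estrogen-related receptor motif TNAAGGTCA was in 1.77%, 0.809% and 0.959% in the same order, and the lysosomal CLEAR motif TCACGTGA in 1.46%, 2.02% and 2.09%. The antioxidant response motif (TGAC, any 3 bases, GCA) was in 3.12% of risers, 3.37% of fallers and 3.24% of all. Matches of different motifs shared a base in the promoters of 23 genes. A match only describes the letters, and these shares were not tested.

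The 250 bases before the start are shown for 5 risers from different groups whose promoter holds one of these motifs, with the motif in capitals (as its reverse complement where the match lies on the other strand): the transporter with the largest fold change (chr6:121342324-121342573, plus strand, NF-kB motif), the growth factor receptor Met (chr6:17463707-17463956, plus strand, AP-1 motif), the NF-kB inhibitor Nfkbia (chr12:55492648-55492897, minus strand, NF-kB motif), the ATP synthase gene Atp5g3 (chr2:73911327-73911576, minus strand, estrogen-related receptor motif) and the proton pump gene Atp6v1a (chr16:44139260-44139509, minus strand, CLEAR motif). The starts are those of RefSeq and can differ from the GENCODE gene bounds given above. For Met the stretch and its motif run past the GENCODE start, and for Slc6a12 the stretch ends well before it. Sequences run 5′ to 3′ on the gene's strand.
Slc6a12: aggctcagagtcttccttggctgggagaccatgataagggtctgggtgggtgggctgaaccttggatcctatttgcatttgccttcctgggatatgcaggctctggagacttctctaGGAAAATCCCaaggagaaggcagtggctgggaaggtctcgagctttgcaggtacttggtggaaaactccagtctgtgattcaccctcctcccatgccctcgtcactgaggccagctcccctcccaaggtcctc
Met: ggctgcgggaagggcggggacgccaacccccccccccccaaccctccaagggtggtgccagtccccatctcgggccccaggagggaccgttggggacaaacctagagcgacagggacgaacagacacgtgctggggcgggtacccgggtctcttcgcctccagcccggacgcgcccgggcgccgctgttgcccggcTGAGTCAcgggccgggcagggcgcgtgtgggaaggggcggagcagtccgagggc
Nfkbia: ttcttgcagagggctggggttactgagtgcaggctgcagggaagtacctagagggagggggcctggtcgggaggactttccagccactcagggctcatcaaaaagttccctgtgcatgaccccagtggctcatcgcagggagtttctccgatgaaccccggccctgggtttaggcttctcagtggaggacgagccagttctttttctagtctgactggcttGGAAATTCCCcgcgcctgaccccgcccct
Atp5g3: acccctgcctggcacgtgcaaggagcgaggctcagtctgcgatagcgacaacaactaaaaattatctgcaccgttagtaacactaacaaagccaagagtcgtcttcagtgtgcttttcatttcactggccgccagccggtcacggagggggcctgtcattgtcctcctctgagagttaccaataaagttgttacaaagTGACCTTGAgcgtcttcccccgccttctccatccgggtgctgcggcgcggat
Atp6v1a: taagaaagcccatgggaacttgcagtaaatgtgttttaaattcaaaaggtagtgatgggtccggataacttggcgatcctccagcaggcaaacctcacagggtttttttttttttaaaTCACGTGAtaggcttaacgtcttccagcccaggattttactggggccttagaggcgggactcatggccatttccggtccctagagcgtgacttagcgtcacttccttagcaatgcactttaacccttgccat

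Secreted signals and their receptors moved in both directions, to be read beside backgrounds of 9.01% risers and 6.89% fallers. Of 17 tested chemokines 4 rose and 4 fell, the falls numbering 2 without wild type replicate 1 or knock-in replicate 1 or 3 and 1 without wild type replicate 4 or knock-in replicate 4. After stromal subtraction 2 chemokines fell. The neutrophil attractants Cxcl1 (0.885 ± 0.564 to 4.31 ± 2.45 CPM) and Cxcl2 (5.2 ± 2.68 to 14.7 ± 5.83 CPM) rose. Cxcl12, the stem cell chemokine made by marrow stroma, fell from 55.3 ± 19.4 to 16.4 ± 4.75 CPM, but the stromal estimate came to 195% of its wild type level. Its receptor Cxcr4 rose from 54.3 ± 14.7 to 121 ± 33.6 CPM, with overlapping groups. Chemokine receptors counted 3 risers and 2 fallers of 11 tested.

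Growth factors had 2 rises and 5 falls among 33 tested genes (6.06% and 15.2%, beside 9.01% and 6.89% of all tested genes). Igf1, the insulin-like growth factor, measured 848 to 1245 CPM (median 948) in wild type and 391 to 811 CPM (median 585) in knock-in (log2 fold change -0.73 ± 0.17 SE, adjusted p = 0.00973), which did not overlap. Gas6, a ligand of the receptors that clear dying cells, measured 339 to 448 CPM (median 364) and 57 to 193 CPM (median 113) (log2 fold change -1.68 ± 0.24 SE, adjusted p = 6.97e-04), also without overlap. Pros1, the related ligand protein S, fell from 93.6 ± 10.2 to 49.2 ± 13.2 CPM. Of 22 interleukins and TNF family ligands 4 rose and 4 fell, the rises numbering 2 without knock-in replicate 2 and the falls 2 without wild type replicate 1, 4 or 6 or knock-in replicate 1, 2 or 3. After stromal subtraction 2 of these ligands rose. The falls included Il15 (121 ± 23.1 to 80.2 ± 15.4 CPM), which maintains NK and memory T cells, and the inflammasome product Il18 (26.3 ± 2.04 to 20.8 ± 1.3 CPM). Cytokine and TNF receptors had 7 rises and 9 falls of 50 (14% and 18%). Tnfrsf9, the costimulatory receptor 4-1BB, rose from 0.161 ± 0.155 to 2.2 ± 0.785 CPM and Csf2rb, the shared chain of the GM-CSF and IL-3 receptors, from 125 ± 18.8 to 240.2 ± 45.8 CPM.

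Guidance molecules, best known from axons, are also used by macrophages and bone cells. Of 48 tested 9 rose and 7 fell (18.75% and 14.6%, beside 9.01% and 6.89% of all tested genes). The neuropilins went apart: Nrp1 measured 460.3 to 721 CPM (median 609) in wild type and 147 to 283 CPM (median 175) in knock-in (log2 fold change -1.61 ± 0.15 SE, adjusted p = 5.01e-05), whereas Nrp2 rose by 0.64 on the log2 scale. The semaphorin Sema4d rose from 192 ± 22.3 to 389 ± 52.8 CPM and the plexin Plxna1 from 304 ± 35.1 to 491 ± 42.9 CPM, while the secreted ligand Slit1 fell from 32.5 ± 14.8 to 11.3 ± 5.18 CPM.

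Genes of adhesion and the membrane changed in both directions, to be read beside backgrounds of 9.01% risers and 6.89% fallers. Integrins had 6 rises and 2 falls of 22 tested, with the fibronectin receptor subunit Itga5 rising from 145 ± 14.3 to 299 ± 47.3 CPM (23.8% stromal in knock-in) and Itgav from 630.1 ± 59.5 to 1046 ± 84.3 CPM. Tetraspanins had 8 and 3 of 23. Of 8 caveolin and cavin genes 4 rose (2 without wild type replicate 1, 2 or 4 or knock-in replicate 4), Cav2 going from 36.6 ± 7.77 to 107 ± 15.5 CPM. After stromal subtraction 2 caveolin and cavin genes rose. Matrix proteases and their inhibitors had 8 rises and 4 falls of 61, including the membrane-bound collagenase Mmp14 (174 to 366 CPM (median 250.1) in wild type, 476 to 749.6 CPM (median 692) in knock-in, log2 fold change 1.42 ± 0.18 SE, adjusted p = 2.66e-04) and, downward, the urokinase Plau (152 ± 54.6 to 86.7 ± 14.6 CPM). Of 57 actin, podosome and myosin genes 10 rose and 5 fell, the falls numbering 3 without wild type replicate 3 or knock-in replicate 5, 2 without wild type replicate 5 or knock-in replicate 2, 1 without wild type replicate 6 or knock-in replicate 6 and 0 without wild type replicate 1, 2 or 4 or knock-in replicate 1, 3 or 4.

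Some genes of mitochondrial energy production rose by small amounts. Of 75 tested nuclear genes of oxidative phosphorylation 28 rose, 0 fell and the others were not called (median log2 fold change 0.29), beside a background of 9.01% risers. In run 1 alone 9 rose and in run 2 alone 0. By complex, 9 of 36 genes of complex I rose, 4 of 4 of complex II, 5 of 8 of complex III, 3 of 12 of complex IV and 7 of 15 of ATP synthase. Uqcrfs1, the iron-sulfur subunit of complex III, measured 40.8 to 65.8 CPM (median 48.4) against 66 to 110.7 CPM (median 97.6) (log2 fold change 0.89 ± 0.13 SE, adjusted p = 6.97e-04), and Sdhb of complex II rose from 74.6 ± 10.4 to 119 ± 13.3 CPM and Uqcr10 from 16 ± 3.32 to 26.9 ± 2.33 CPM. Atp5g3, chosen after its values were seen because its promoter is shown, rose from 31.5 ± 4.83 to 51.2 ± 7.45 CPM.

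Of 35 tested genes of the tricarboxylic acid cycle and fatty acid oxidation, which feed the respiratory chain, 19 rose and 0 fell, with a median of 0.34. In run 1 alone 2 rose and in run 2 alone 0. Malate dehydrogenase, Mdh2, measured 84.2 to 145 CPM (median 112.3) against 156 to 223 CPM (median 192), and Acadvl, which starts the oxidation of long fatty acids, rose from 20.5 ± 2.15 to 30.7 ± 2.85 CPM. Neither gene overlapped between genotypes. Ppargc1b, the coactivator PGC-1 beta that drives mitochondrial gene programs, measured 31.4 to 42.9 CPM (median 39.4) in wild type and 91.6 to 179 CPM (median 120.2) in knock-in libraries (log2 fold change 1.76 ± 0.15 SE, adjusted p = 2.32e-05). Esrra, a nuclear receptor that works with it, was at 0.39 (adjusted p = 0.0215), and lost its call without wild type replicate 1 or knock-in replicate 2, with adjusted p-values up to 0.059. Counts from the mitochondrial genome took 4.93% to 6.54% of wild type and 5.39% to 7.75% of knock-in libraries, with overlap.

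Of 32 tested glycolytic enzymes and glucose carriers 18 rose and 2 fell (median 0.45), with 10 rises in run 1 alone and 1 in run 2 alone. Aldolase, Aldoa, rose from 469.99 ± 60.5 to 784 ± 33 CPM, enolase, Eno1, from 161 ± 23.6 to 275 ± 25.9 CPM and the glycogen phosphorylase Pygl from 71.2 ± 8.58 to 115 ± 7.85 CPM. The falls were the myeloid hexokinase Hk3 (145 ± 24 to 80.7 ± 6.64 CPM, -0.84) and the glucose carrier Slc2a3 (18.6 ± 6.7 to 6.99 ± 2.73 CPM, -1.40). Lists of protein synthesis and turnover held few called genes. Cytosolic ribosomal proteins had 0 calls by edgeR and by DESeq2 among 81 tested (3 at an unadjusted edgeR p under 0.05, median -0.04), mitochondrial ribosomal proteins 1 of 74, proteasome subunits 1 up and 2 down of 46, tRNA synthetases 2 of 37 and chaperones of the endoplasmic reticulum 2 up and 1 down of 29.

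**Figure D4:**
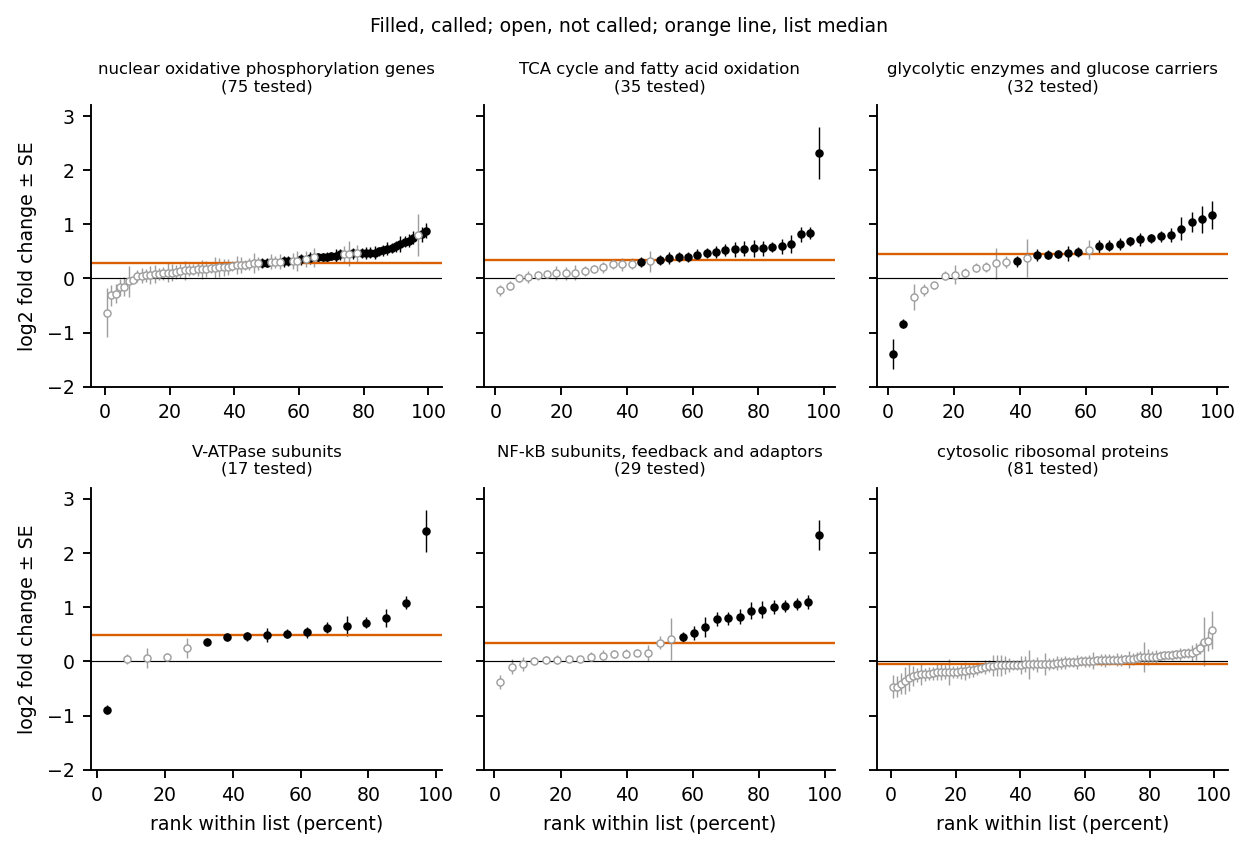
Log2 fold change ± SE (vertical axis) of each tested member of 6 lists, ranked within its list (horizontal axis, percent), filled where called and open where not, with the list median in orange. The 2 mitochondrial lists hold called and open members, with small changes (medians 0.29 and 0.34), while none of the 81 ribosomal protein genes was called.

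Lysosomes and the resorbing surface of osteoclasts are acidified by the vacuolar proton pump. Of 17 tested subunits of the proton pump 12 rose and 1 fell (median log2 fold change 0.49). In run 1 alone 5 rose and in run 2 alone 1. In the V1 sector 7 of 9 rose, Atp6v1b2 going from 272 ± 46.4 to 575 ± 107 CPM and Atp6v1a from 366 ± 49.4 to 602 ± 89.2 CPM, and in the V0 sector 3 of 6, among them Atp6v0e (75 ± 12 to 116 ± 11.7 CPM). Atp6v0a1, an isoform of the V0 subunit that carries protons, measured 414 to 530.05 CPM (median 473) in wild type and 220.4 to 287 CPM (median 258) in knock-in, and fell without overlap (log2 fold change -0.89 ± 0.09 SE, adjusted p = 5.77e-05). Cathepsins and lysosomal hydrolases were mixed, 9 up and 5 down of 50. The rises numbered 5 without wild type replicate 4 or knock-in replicate 3 or 4 and 4 without wild type replicate 1 or knock-in replicate 2, and the falls 3 without wild type replicate 1, 2, 3 or 5 or knock-in replicate 4 or 6 and 2 without wild type replicate 4 or knock-in replicate 1 or 2. After stromal subtraction 2 of these lysosomal genes fell. Ctsl rose from 217 ± 26.1 to 447 ± 109.8 CPM, Arsb, which degrades glycosaminoglycans, from 127 ± 37.9 to 236 ± 38.3 CPM and the sphingomyelinase Smpd1 from 14.7 ± 3.59 to 25.9 ± 5.53 CPM, while the galactocerebrosidase Galc fell from 166 ± 11.5 to 131 ± 10.8 CPM. Autophagy genes had 5 rises and 3 falls of 31, the rises numbering 3 without wild type replicate 1 or knock-in replicate 3. Rragd, which recruits nutrient signalling to lysosomes, rose from 5.71 ± 1.16 to 12.4 ± 4.37 CPM.

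Redox and amino acid genes rose in part. Of 34 tested targets of the antioxidant factor NRF2 and metallothioneins 13 rose and 1 fell. The cystine importer Slc7a11 measured 13.7 to 20.03 CPM (median 17.3) against 51.3 to 277 CPM (median 108) (log2 fold change 2.89 ± 0.34 SE, adjusted p = 2.31e-04), with knock-in replicate 6 the highest by far. Gsta3, a glutathione transferase, rose from 3.11 ± 1.95 to 24.5 ± 10.8 CPM and Mt2 from 1.3 ± 0.539 to 6.37 ± 0.976 CPM, while G6pdx, which supplies NADPH, fell from 210.7 ± 21.3 to 174 ± 17.1 CPM. Arginine and polyamine genes had 5 rises and 2 falls of 24. The arginine-making enzyme Ass1 rose from 6.35 ± 1.53 to 42.4 ± 12.8 CPM, the arginase Arg2 from 1.18 ± 0.626 to 7.76 ± 4.38 CPM and the polyamine enzyme Odc1 from 35.2 ± 7.92 to 67.9 ± 14.7 CPM, and the polyamine oxidase Paox fell from 31.9 ± 2.3 to 17.3 ± 3.29 CPM. Serine and ATF4 target genes had 3 rises and 1 fall of 28.

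Among 208 tested solute carriers 43 rose and 21 fell, shares of 20.7% and 10.1% beside backgrounds of 9.01% and 6.89%. Slc36a2, a proton-coupled amino acid carrier, rose from 2.01 ± 0.887 to 15.5 ± 4.74 CPM, Slc39a4, a zinc importer, from 3.09 ± 1.65 to 19.98 ± 2.48 CPM and the vesicular amine carrier Slc18a1 from 1.35 ± 0.538 to 10.6 ± 5.57 CPM. The organic anion carrier Slco2b1 fell from 120.4 ± 37.4 to 31.6 ± 9.92 CPM and the urea channel Slc14a1 from 4.58 ± 2.34 to 0.63 ± 0.356 CPM. Iron and heme genes had 5 rises (3 without wild type replicate 4 or knock-in replicate 2 or 4 and 2 without wild type replicate 1) and 2 falls of 27. The transferrin receptor Tfrc rose from 235 ± 46.4 to 495 ± 149.8 CPM and Alas1, which starts heme synthesis, from 72.8 ± 5.96 to 133 ± 23 CPM. Potassium, calcium and TRP channels had 8 rises and 7 falls of 69, the calcium channel subunit Cacna1a falling from 402 ± 77.7 to 181 ± 31.9 CPM. After stromal subtraction 4 of these channel genes fell.

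Genes of lipid mediators changed in both directions, 9 up and 7 down of 32. On the prostaglandin D2 arm, the synthase Hpgds measured 375 to 447 CPM (median 412) in wild type and 140.2 to 227 CPM (median 181) in knock-in (log2 fold change -1.17 ± 0.10 SE, adjusted p = 2.32e-05), without overlap. Pla2g4a, which releases the arachidonic acid from which prostaglandins are made, fell from 173 ± 11.9 to 101 ± 10.4 CPM. Hpgd, the degrading enzyme, fell too, as given above. G protein-coupled receptors for nucleotides, lipids and peptides had 8 rises (5 without wild type replicate 3 or 4 or knock-in replicate 2 or 6) and 6 falls of 35. Cholesterol and lipoprotein genes had 2 and 3 of 32. Nuclear receptors and coregulators had 5 rises and 4 falls of 36, the rises numbering 3 without wild type replicate 2 or 4 or knock-in replicate 3 and 2 without wild type replicate 1 or knock-in replicate 2. The vitamin D receptor Vdr rose by 1.33 on the log2 scale, but an estimated 85.5% of its knock-in level was stromal and the call was lost after subtraction.

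Of 42 tested interferon-stimulated genes 0 rose and 7 fell (16.7%, beside 6.89% of all tested genes). The median log2 fold change was -0.51 against -0.00479 over all genes, and the summed level was 1547 to 2979.9 CPM in wild type and 1246 to 2427 CPM in knock-in libraries, with overlap. The count depended on single libraries, with falls of 15 without knock-in replicate 5, 11 without wild type replicate 6, 4 without wild type replicate 5, 3 without wild type replicate 3 or knock-in replicate 6, 2 without knock-in replicate 1, 2 or 3, 1 without wild type replicate 4 or knock-in replicate 4 and 0 without wild type replicate 2. Without replicate 3 of each genotype 0 fell, after subtraction 2 and with the stromal share as covariate 14. Without the filter on low counts 1 fell, in run 1 alone 3 and in run 2 alone 0. Herc6 fell from 25.9 ± 2.99 to 18.3 ± 4.45 CPM (adjusted p = 0.0197) and Phf11d from 25.4 ± 11.2 to 11.7 ± 4.42 CPM (adjusted p = 0.0222). Herc6 lost its call without wild type replicate 2, and Phf11d without wild type replicate 2 or 4 or knock-in replicate 4, with adjusted p-values up to 0.0548 and 0.059.

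Cell cycle and replication genes had 0 rises and 5 falls of 45 tested (median -0.11). The falls were 11.1% of the list, beside 6.89% of all tested genes. The falls included cyclin D1, Ccnd1 (203 ± 36.1 to 87.5 ± 21.6 CPM), the replication clamp Pcna (108 ± 28.6 to 77 ± 11.1 CPM) and also the cell cycle inhibitor Cdkn1a (64.3 ± 5.78 to 36.4 ± 8.21 CPM), so genes that promote and that restrain division both fell. Antigen presentation by MHC class II had 1 rise and 1 fall of 12 tested genes. Zinc finger genes of the C2H2 type, a large family of DNA-binding proteins, had 9 up and 15 down of 333. These shares of 2.7% and 4.5% lay below the 9.01% and 6.89% of all tested genes. Zfp618 had a log2 fold change of -1.20, with 46% of its wild type level stromal, and lost its call after subtraction.

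**Figure D5:**
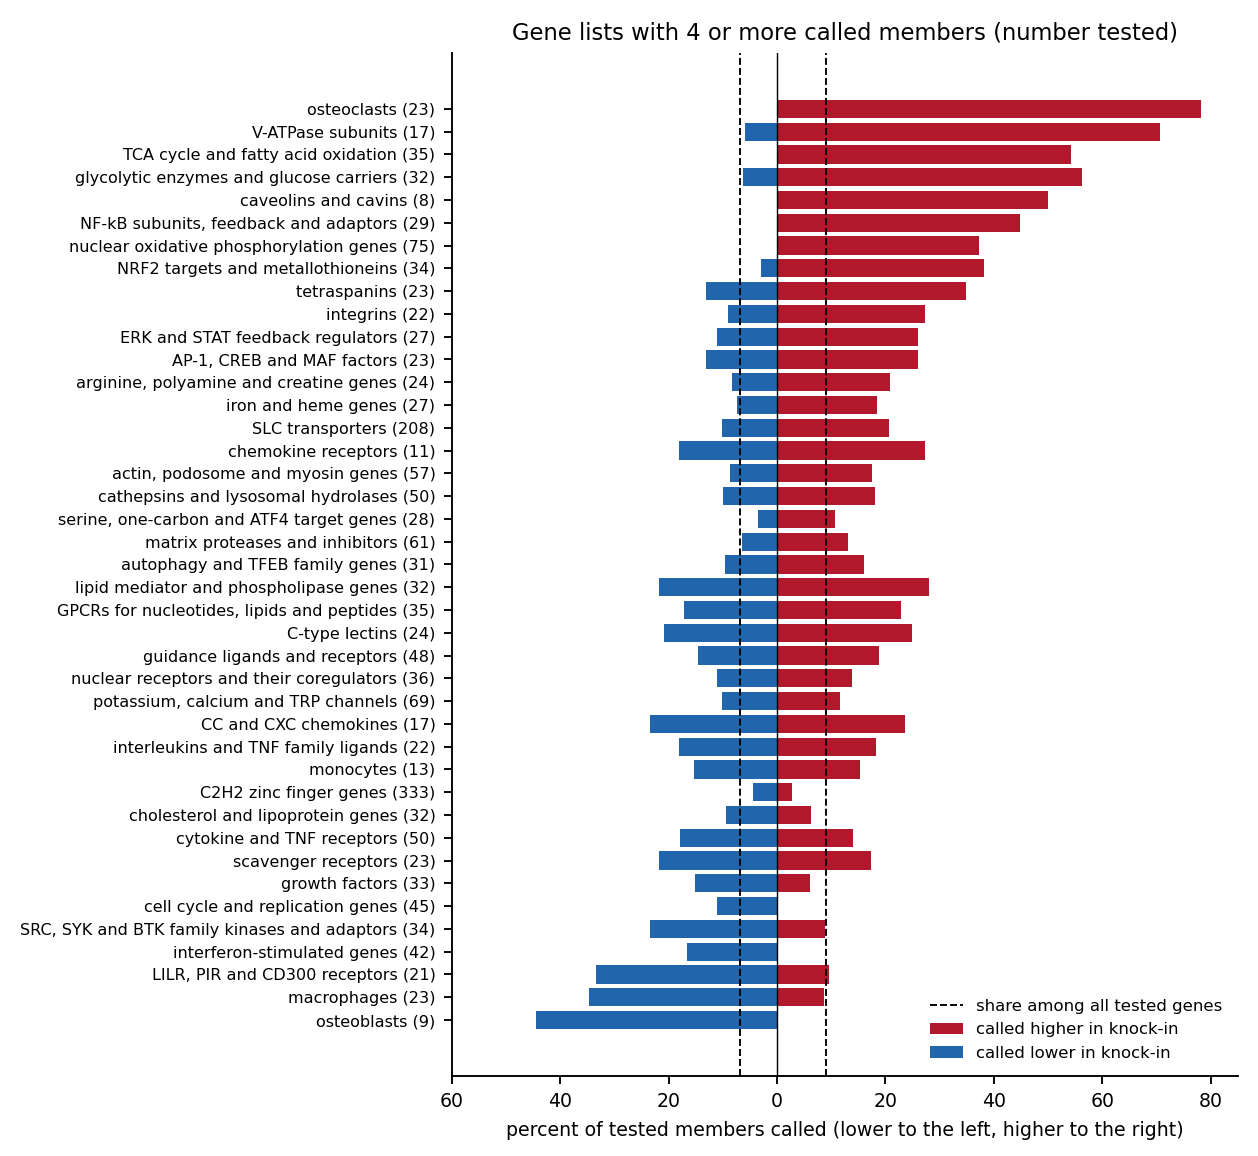
Percent of tested members called higher (right, red) and lower (left, blue) in knock-in cells for the gene lists described here with 4 or more called members, with the number tested in brackets and dashed lines at the shares among all tested genes (9.01% and 6.89%). The proton pump, tricarboxylic acid cycle and glycolysis lists stand far to the right of the dashed line, and the macrophage and paired receptor lists to the left.

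The comparison was repeated within each run, as read from the file names, 3 libraries against 3. Run 1 alone called 672 of 13958 genes (4.81%), 417 higher and 255 lower, and run 2 alone 218 of 14096 (1.55%), 160 higher and 58 lower. Both runs alone called 153 of the 2231 genes. Of the 2209 called genes tested in both runs all had the same sign in both, which the choice of called genes favours, and of all 13653 genes tested in both runs 72.2% did. A test of the difference between the runs in the genotype effect called 0 genes by edgeR and 0 by DESeq2. By edgeR 288 of 14030 genes (2.05%) had an unadjusted p under 0.05, a smaller share than chance would give. With 3 libraries per genotype in each run, 0 calls do not show that the runs agree.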

How the data were processed

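Total RNA, depleted of ribosomal RNA, was made into stranded libraries and sequenced as paired ends, per the labels' protocols. The authors deposited whole-number counts per Ensembl gene for each library. The submitters' processing notes name HTSeq 0.9.1, DESeq2 1.20.0, FastQC 0.11.7, MultiQC and the build GRCm38. The strand setting and how shared or overlapping reads were treated are stated in neither labels nor tables, so near-identical and overlapping genes carry that doubt. The run was read from the prefix of the deposited file names, with 3 libraries per genotype and run. Whether it is a sequencing run or another batch is not stated in the labels.

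From the 12 hematopoietic tables, 14030 of 54232 listed genes passed edgeR's filter (minimum count 10, minimum total 15). Counts were scaled with TMM and tested with edgeR 4.0.16 (quasi-likelihood, robust, run and genotype as terms) in R 4.3.3, with Benjamini-Hochberg adjustment over all tested genes. SE is the absolute log2 fold change over the square root of F. CPM values use the TMM-scaled totals. Gene coordinates are from GENCODE M21. Replicate libraries differed by more than counting noise (chi-square per degree of freedom 12.5 or more), so each counted as 1 sample. The fit, tested on simulated data for 13846 genes of this comparison, called 31.3% of genes changed 1.5-fold, 68.7% at 2-fold, 93.9% at 4-fold and 0.0293% of unchanged genes. The simulation changed few genes and held no run effect. In the data 15.9% of tested genes were called, so these rates need not carry over.

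The stromal share of a library is the median, over 23 of 26 stromal markers at 10 CPM or more in mesenchymal libraries, of its level relative to the mesenchymal mean of its genotype. Simulated mixtures of 5%, 10% and 20% were estimated at 4.22% to 6.15%, 10.6% to 12.8% and 17.4% to 24.0%. The mixtures took the stromal markers out of the CD45-positive profile and drew the stromal part from the same mesenchymal libraries. They therefore check only the calculation. Whether CD45-positive cells express the markers, or other stromal cells were present, was not tested.

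Members and the 61 gene lists were chosen with earlier results of these data known. Named genes were Sh3bp2, Ptprc, Ly6a and, among called protein-coding genes outside the osteoclast list, the 12 largest rises and falls at 5 CPM or more, the 8 largest each way in CPM, the 8 smallest adjusted p-values and up to 3 rises and 3 falls per list with 4 or more called members. The text gives 135 genes, 1 of which (Atp5g3) lies outside the rule; some items are not reported here. Alternatives were DESeq2 1.42.0, other scalings and filters, no run term, a replicate block, all 24 libraries, each run alone, each library left out, and the stromal share as a covariate or subtracted.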

Additional observations from a re-analysis of the deposited data

Results flagged for a closer look

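A library was picked out where its value lay far from the other 5 of its genotype, by Dixon's criterion. Of 274 groups of 6 values, 24 had such a library, and chance gives about 1 in 20. Knock-in replicate 6 gave 6 of them and knock-in replicate 4 gave 0. The estimated stromal RNA share was 18.9% in wild type replicate 3, with the next library at 8.99%, and 21.1% in knock-in replicate 3, with the next at 10.7%.

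Wild type replicate 3 held Sh3bp2 below the rest at 162 CPM (nearest library 209). Wild type replicate 2 held Ly6a above the rest at 32.2 CPM (nearest library 13.1) and Slc36a2 above the rest at 3.64 CPM (nearest library 2.03). Knock-in replicate 2 held Vegfc above the rest at 115 CPM (nearest library 51). Knock-in replicate 6 held Saa3 above the rest at 76.6 CPM (nearest library 26.1), Pla2g7 above the rest at 1177 CPM (nearest library 779.8), Rragd above the rest at 21.2 CPM (nearest library 11.5), Slc7a11 above the rest at 277 CPM (nearest library 122), Marco above the rest at 501 CPM (nearest library 169) and Slc18a1 above the rest at 21.9 CPM (nearest library 9.34). Wild type replicate 1 held Fgf13 above the rest at 59.1 CPM (nearest library 28.3), Alas1 below the rest at 60.9 CPM (nearest library 73.1) and Lair1 above the rest at 277 CPM (nearest library 225). Knock-in replicate 1 held Slc9a9 above the rest at 1045 CPM (nearest library 678). Wild type replicate 4 held Fcrls above the rest at 1236 CPM (nearest library 903). Wild type replicate 5 held Arsb above the rest at 201 CPM (nearest library 123.3) and Dusp4 above the rest at 21 CPM (nearest library 10.3). Knock-in replicate 5 held Fos below the rest at 116 CPM (nearest library 185), Fcgr1 above the rest at 87.1 CPM (nearest library 48) and Herc6 above the rest at 26.8 CPM (nearest library 19). Wild type replicate 6 held Olr1 below the rest at 0 CPM (nearest library 1.03) and Slc14a1 above the rest at 9.001 CPM (nearest library 4.52).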

How the results depend on the processing

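The counts of 1264 risers and 967 fallers stayed within 1.5 times, with no call in the opposite direction, under DESeq2 (1548 and 1295), DESeq2's size factors (1249 and 995), library size alone (1218 and 1022), no filter (1129 and 832), a stricter filter (1308 and 909), no run term (1178 and 884), all 24 libraries (1324 and 1111), the stromal share as covariate (1427 and 1204) and stromal subtraction (1119 and 881, with 1 called gene in the opposite direction but not called). Leaving out 1 library gave 1027 to 1322 risers and 681 to 889 fallers. Run 1 alone gave 417 and 255, and run 2 alone 160 and 58, each with 3 libraries per genotype. The replicate block gave 1695 and 1620, and among interferon-stimulated genes 19 falls of 42 tested against 7 without it. Same-numbered libraries of both genotypes correlated in their deviations from the group means at 0.499, 0.0855, 0.547, 0.214, 0.245 and 0.470, with 3 of 6 numbers their own best match. Pairs required more than 0.1 for every number on this measure, so the block was kept as an alternative. Deviations from the means of group and run correlated at 0.118 to 0.494, all above 0.1. By this second measure every number passed, so the main calls and the stromal permutation test leave out a possible pairing. The stromal share difference of 1.196 points was 3.08 without wild type replicate 3, -0.89 without knock-in replicate 3, and 0.42 to 2.17 with other marker choices or the wild type reference for both genotypes; the cause was not tested. Of the 135 genes given, 8 lost their call with all 24 libraries, 6 without the highest stromal share of each genotype, 5 without the filter, 41 in run 1 alone and 86 in run 2 alone. Ptprc turned to 0.040 in run 2 alone. Ly6a, at -0.11, turned to 0.15 under the replicate block and 0.18 in run 2 alone, and ran from -0.32 to 0.39 when 1 library was left out. Depth limits genes with few counts, such as Slc6a12 in wild type.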

Other observations

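Calls were also counted by gene length, in 5 groups of about equal size from the shortest (9.398 kb or less) to the longest (77.958 kb or more). In that order 3.44%, 4.39%, 7.18%, 8.94% and 14.2% of tested protein-coding genes fell, while 9.22%, 8.73%, 10.0%, 9.68% and 9.96% rose. Among the most expressed of 5 groups by level, the falls went from 8.59% of the shortest to 19.4% of the longest genes and the rises from 19.6% to 9.01%. These shares were not tested. The level of the longest group over the shortest, on the log2 scale, was 1.48 to 2.08 (median 1.92) in wild type and 1.54 to 1.96 (median 1.69) in knock-in libraries, with overlap.

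Genes near Sh3bp2 on its chromosome were counted separately. Within 1 Mb, 3 of 26 tested genes rose (Letm1, Zfyve28 and Nsd2) and Poln fell, 15.4% in all, and within 5 Mb 8 rose and 5 fell of 97, 13.4%, beside 15.9% of all tested genes.

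Of 2925 genes on the lists, 133 had 0 counts in all 24 libraries. These include genes that every cell uses, such as the ribosomal protein gene Rpl13 and the cytochrome oxidase gene Cox4i1, and leukocyte genes such as Itgam, Myd88 and Irf8, so a gene listed at 0 is not shown to be absent. Of the 133, 56 overlap another gene on the same strand, against 19.4% of all protein-coding genes listed.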
